A study of Mus musculus with 33 samples.

Results

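Of the 88344 regions called for monomethylation of histone H3 lysine 4 (H3K4me1) in E13.5 mouse endothelial cells with 2 added Runx1 copies, 51338 (58.1%) did not share a single base with any of the 48795 regions called in the E13.5 control cells. These 51338 regions, chosen by comparison of the 2 deposited region lists, are called 2Runx1-only here. The other 37006 regions of the same list overlapped a control region by at least 1 bp and are called shared. The choice itself used the H3K4me1 calls, so the number of 2Runx1-only regions, their widths and their enrichment are descriptions without a test. What the choice did not use was the open chromatin state of the regions and the RNA of the genes near them.

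The sort gate took CD31+ and VEC+ (VE-cadherin) cells with low or positive cKIT that lacked CD41, CD45 and Ter119. The cells came from whole fetuses (E13.5), whole embryos (E9.5) or the livers of adults aged 4 to 6 weeks. All groups, controls included, carried a conditional knock-in allele (CKI). Ctrl was CKI/CKI or CKI/+ at E13.5 and in liver and CKI/+ at E9.5, with no Cre named. The group 1Runx1 was Cre; CKI/+ and the group 2Runx1 was Cre; CKI/CKI, so Cre and added Runx1 cannot be told apart in any comparison with Ctrl. The labels do not say which promoter drives Cre. The strain was C57BL/6J-129Sv/J, with B6C3F1 added for the superovulated E9.5 matings. Tamoxifen (2 mg) was given 24 hours before harvest for both embryonic stages and by oral gavage for the adults. ChIP for H3K4me1 covered the E13.5 Ctrl and 2Runx1 groups, with 2 libraries and 1 input per group, from 50000 cells per reaction. Open chromatin was measured by ATAC-seq with 2 libraries in each of 7 groups, and RNA in 13 libraries, 2 per group except for 1 E13.5 Ctrl library. Each H3K4me1 or ATAC group had 1 list of peaks that combined its replicates, so that presence or absence of a peak had no replicate check. The depth behind these lists is unknown here, and a region absent from a list is a region not called, not one shown to lack the mark. In the 2Runx1 labels, the sample titled as input is described by the ChIP files and the first ChIP sample by the input file. The 2 descriptions may have been swapped, so which libraries made up the 2Runx1 list is in doubt, and every count of 2Runx1-only regions rests on it.

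H3K4me1 is laid down by the MLL3 and MLL4 methyltransferases at enhancers and along the flanks of promoters. It can precede or outlast the opening of the chromatin, so that marked regions include active, primed and closed elements, whereas ATAC-seq reports where a transposase can reach the DNA. RUNX1 is the DNA-binding factor required for endothelial cells to become hemogenic, that is, to give rise to blood cells. It binds a short core motif, often beside sites of ETS and GATA factors, and recruits both activating and repressing chromatin enzymes.

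The sequences below are the 250 bases before a RefSeq start of 5 genes (GRCm38.p6), each lying wholly inside a 2Runx1-only region, and were chosen after the values were seen. Gprin3 and Dgka were the only genes called higher in E13.5 2Runx1 with a window inside such a region. The Dgka window lies within the gene's span, chr10:128720131-128745084, and not before the upstream end of that span. Gp1ba and Itga2b are platelet receptor genes whose region had an ATAC peak in E13.5 2Runx1 and none in E13.5 Ctrl. Batf, an AP-1 family factor gene, is shown for its 2 RUNX cores. Capitals mark the RUNX core, searched as TGTGGT and TGCGGT on both strands.
Gprin3: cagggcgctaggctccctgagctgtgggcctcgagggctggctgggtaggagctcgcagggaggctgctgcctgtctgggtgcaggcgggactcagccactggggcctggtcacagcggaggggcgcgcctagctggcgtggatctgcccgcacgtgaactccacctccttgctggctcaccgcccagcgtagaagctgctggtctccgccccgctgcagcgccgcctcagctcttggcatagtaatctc
Dgka: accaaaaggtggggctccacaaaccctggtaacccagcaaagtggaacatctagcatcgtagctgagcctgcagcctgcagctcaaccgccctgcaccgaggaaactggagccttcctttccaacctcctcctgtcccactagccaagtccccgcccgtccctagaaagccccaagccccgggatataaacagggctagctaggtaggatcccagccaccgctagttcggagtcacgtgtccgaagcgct
Gp1ba: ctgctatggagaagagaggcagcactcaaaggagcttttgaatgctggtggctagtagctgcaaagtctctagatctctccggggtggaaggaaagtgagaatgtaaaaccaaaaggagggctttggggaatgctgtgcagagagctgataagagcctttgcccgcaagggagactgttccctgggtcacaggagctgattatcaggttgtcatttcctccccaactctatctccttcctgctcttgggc
Itga2b: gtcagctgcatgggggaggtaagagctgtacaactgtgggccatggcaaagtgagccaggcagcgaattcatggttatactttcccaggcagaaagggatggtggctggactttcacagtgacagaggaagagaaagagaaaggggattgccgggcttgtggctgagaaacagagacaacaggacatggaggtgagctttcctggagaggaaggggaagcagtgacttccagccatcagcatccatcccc
Batf: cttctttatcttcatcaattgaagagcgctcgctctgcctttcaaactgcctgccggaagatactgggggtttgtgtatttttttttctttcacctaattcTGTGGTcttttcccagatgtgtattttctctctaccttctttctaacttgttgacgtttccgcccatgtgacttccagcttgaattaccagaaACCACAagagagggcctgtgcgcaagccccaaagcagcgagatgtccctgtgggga
These windows lie at chr6:59426307-59426556 (minus strand), chr10:128737613-128737862 (minus), chr11:70638872-70639121 (plus), chr11:102469884-102470133 (minus) and chr12:85686470-85686719 (plus), in the same order. The Gprin3, Dgka, Gp1ba and Itga2b windows held 0 RUNX cores, which says only that these letters are not in these windows. The Gprin3 region had an ATAC peak in each of the 7 lists, with fold enrichments between 11.7 and 27.8. The Dgka region had one in the 3 E13.5 lists and both E9.5 lists and none in liver. Of all 1052 RefSeq windows inside 2Runx1-only regions, 210 held a RUNX core, and 19.9% did among the 836 of them open in all 3 E13.5 ATAC lists. The share was 17.9% of the 3646 windows inside shared regions and 18.6% of all 32817 windows. The ETS motif AGGAAG was in 34.3%, 31.2% and 29.5% of the windows in 2Runx1-only regions, shared regions and all promoters, and the GATA motif AGATAA in 8.56%, 6.53% and 9.99%. The SMAD motif CAGACA was in 19.2%, 16.2% and 17.1%. Both strands were searched, and matches of different motifs may share bases. These are shares of promoters alone, since sequence under the regions away from starts was not used here.

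The 2Runx1-only regions were narrow and weakly enriched beside the shared regions. Their median width was 503 bp (265 to 4415), against 1186 bp (265 to 26100) for the shared regions and 505 bp for the Ctrl list. Their median fold enrichment over background was 2.92, against 3.31 for the shared regions, and their median −log10 q was 1.88, against 2.72. In the Ctrl list these medians were 3.15 and 1.64. They made up 31.6 Mb of the 88.8 Mb covered by the 2Runx1 list (35.6%), while the whole Ctrl list covered 33.4 Mb. In the other direction, 4432 Ctrl regions overlapped no 2Runx1 region. The highest −log10 q reached 10.5 in the 2Runx1 list and 4.39 in the Ctrl list, and the part of this in the number of 2Runx1-only regions was not tested.

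Regions just inside and just outside the rule had similar widths and enrichment. The 732 2Runx1-only regions lying under 100 bp from a Ctrl region had a median width of 508 bp and a median fold enrichment of 2.93. The 1076 shared regions with 1 to 100 bp in a Ctrl region had 502 bp and 2.94. ATAC peaks of E13.5 2Runx1 were in 34.8% of the former and 37.9% of the latter. At the far end, 20719 regions (40.4%) lay 10 kb or more from the nearest Ctrl region.

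Chromosome X stood apart from the autosomes. On it, 830 of 897 2Runx1 regions (92.5%) were 2Runx1-only, against 54.5% to 60.1% on each autosome, and the Ctrl list held 100 regions there. Chromosome X carried 0.205% of the Ctrl H3K4me1 list, 1.02% of the 2Runx1 list and 2.22% to 2.45% of each ATAC list. The sex of the fetuses is not in the labels. In the RNA, which came from other libraries, Xist was at 6.34 RPKM and the Y-linked Ddx3y at 6.67 in E13.5 Ctrl, and at 5.17 and 3.78 (Xist) and 3.0 and 7.13 (Ddx3y) in the E13.5 2Runx1 libraries. Both kinds of transcript were thus present in each of these 3 libraries. The E13.5 1Runx1 libraries differed, with Xist at 0.00919 and Ddx3y at 17.6 RPKM in the first and at 5.35 and 0.0178 in the second, and the part of this in the RNA comparisons with 1Runx1 was not tested. The part of fetal sex in the H3K4me1 lists was not tested. Without chromosome X, 50508 of 87447 regions (57.8%) were 2Runx1-only and an E13.5 ATAC peak of Ctrl, 1Runx1 and 2Runx1 was in 37.4%, 37.9% and 33.6% of them.

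**Figure D1:**
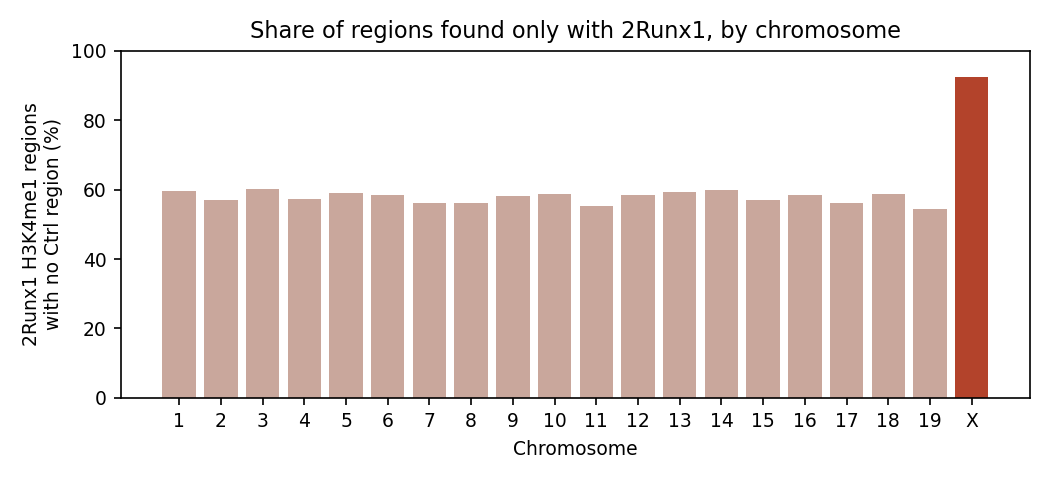
Percent of the E13.5 2Runx1 H3K4me1 regions on each chromosome that overlap no Ctrl region; each bar is 1 chromosome of the single combined list per group. Chromosome X stands at 92.5%, and the autosomes lie between 54.5% and 60.1%.

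Most of the 2Runx1-only regions were not in open chromatin, and those that were had mostly been open without added Runx1. Of the 51338 regions, 28946 (56.4%) had no ATAC peak in any of the 3 E13.5 lists, against 23.0% of the shared regions. A peak of every E13.5 list was in 15102 (29.4%), against 65.5% of the shared regions. By list, an ATAC peak was in 37.6% of the 2Runx1-only regions in Ctrl, 38.1% in 1Runx1 and 33.8% in 2Runx1. The shared regions had 72.9%, 72.6% and 68.8%. The lists held 96537, 100268 and 80857 peaks, so that the lower 2Runx1 share goes with a shorter list. At E9.5 the share was 35.9% in Ctrl and 35.6% in 1Runx1, and in adult liver endothelium it was 11.5% in Ctrl and 11.0% in 2Runx1. The liver lists were the shortest, with 39019 and 39469 peaks. In all, 25886 regions (50.4%) had no peak in any of the 7 lists and 3763 (7.33%) had one in all 7.

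**Figure D2:**
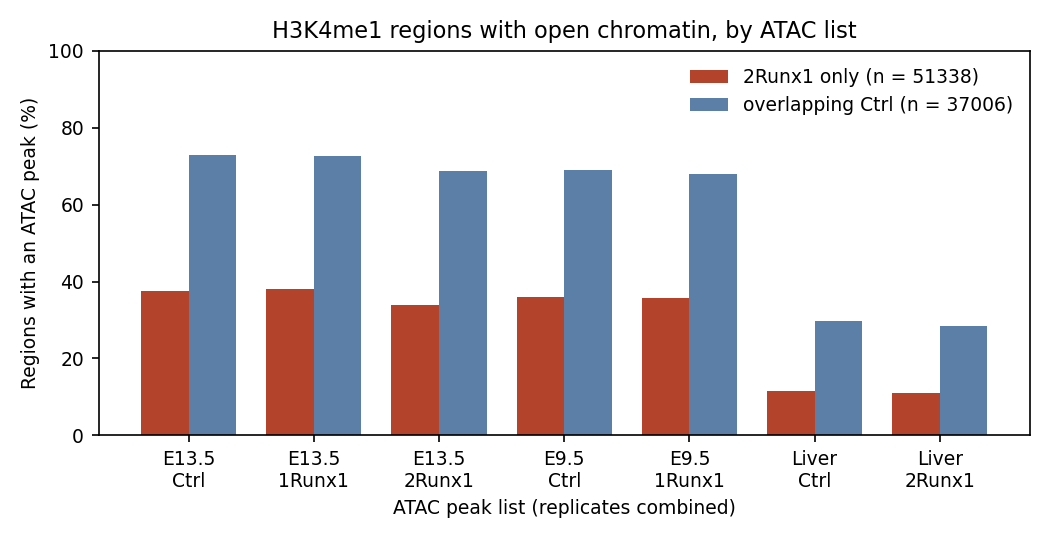
Percent of H3K4me1 regions overlapped by an ATAC peak in each of the 7 ATAC lists, for the 51338 2Runx1-only regions and the 37006 shared regions; each bar is 1 combined list, with no replicate error. The 2Runx1-only bars lie below the shared bars in every list, and the liver bars are the lowest for both.

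Open chromatin followed the width of the region in both sets, and 2Runx1-only regions lay lower at each width. Among those under 400 bp wide, 24.6% had an E13.5 Ctrl ATAC peak, against 42.1% of shared regions of that width. Among those of 1600 bp or more, the shares were 74.1% and 88.8%. The same order held by strength of the mark. At a −log10 q between 1 and 1.5, 24.7% of the 2Runx1-only and 46.9% of the shared regions had a Ctrl ATAC peak. At 4 or more the shares were 64.7% and 87.8%.

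An ATAC peak called in E13.5 2Runx1 and not in Ctrl, called gained here, was in 1673 of the 2Runx1-only regions (3.26%) and in 840 shared regions (2.27%), against 2.84% of all 2Runx1 regions. Of these 1673, 935 (1.82% of the 2Runx1-only regions, against 1.58% of all) also had a peak in 1Runx1, and 738 had none. The reverse, a peak in Ctrl and none in 2Runx1, was more frequent, at 3626 regions (7.06%, against 6.78% of all). The 2Runx1 list was shorter than the Ctrl list, with 80857 against 96537 peaks. With 1Runx1, whose list held 100268 peaks, the order was the other way. A peak in 1Runx1 and none in Ctrl was in 2371 regions (4.62%, against 3.96% of all). A peak in Ctrl and none in 1Runx1 was in 2103 (4.1%, against 3.81% of all). The part of list length was not tested. Of the regions open in Ctrl or 2Runx1, 17.3% of the 2Runx1-only regions had lost the peak, against 8.5% of the shared and 12.3% of all, and 7.98% had gained it, against 3.02% and 5.15%. Which set had the larger gained share depended on the denominator. Over all regions of 1600 bp or more it was 3.21% of the 2Runx1-only (43 regions) and 1.36% of the shared (170 regions), and under 400 bp 2.67% and 2.78%. A region can gain a peak only where Ctrl has none, and among the regions closed in Ctrl 1673 of 32055 2Runx1-only (5.22%) and 840 of 10017 shared regions (8.39%) were gained. By width these shares were 3.54% and 4.81% under 400 bp and 12.4% and 12.2% at 1600 bp or more. Seen from the ATAC side, 7821 of the 80857 E13.5 2Runx1 peaks (9.67%) were absent from the Ctrl list. Of those 7821, 20.8% lay in a 2Runx1-only region, 16.3% in a Ctrl H3K4me1 region and 62.9% in neither. All 80857 peaks were divided as 21.9%, 31.2% and 46.9%. The share in 2Runx1-only regions among peaks absent from Ctrl was therefore close to its background.

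**Figure D3:**
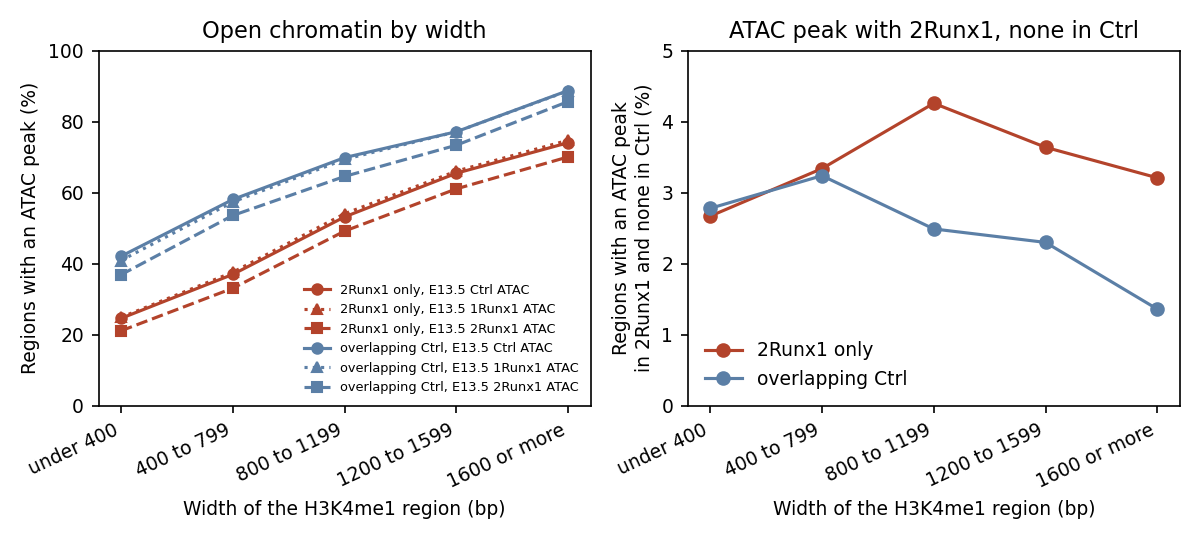
Left, percent of H3K4me1 regions with an E13.5 ATAC peak by region width, with 1 line per ATAC list; right, percent with an ATAC peak in 2Runx1 and none in Ctrl. On the left the 2Runx1-only lines rise from 24.6% to 74.1% (Ctrl list) and stay below the shared lines; on the right, over all regions, the sets are close under 800 bp and the 2Runx1-only line is higher above it, whereas among regions closed in Ctrl (not drawn) 5.22% of the 2Runx1-only and 8.39% of the shared regions were gained.

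Of the 935 regions gained in both E13.5 Runx1 groups, 399 (42.7%) had an ATAC peak in E9.5 Ctrl, without added Runx1, and 297 (31.8%) gained one in E9.5 1Runx1. The E9.5 libraries came from other embryos. Among 2Runx1-only regions with no peak in E13.5 Ctrl and none in E9.5 Ctrl, which leaves out those 399, an E9.5 1Runx1 peak was in 297 of 536 (55.4%) of those open in both E13.5 Runx1 groups. The same was seen for 138 of 462 (29.9%) of those open in E13.5 2Runx1 alone, 161 of 925 (17.4%) of those open in E13.5 1Runx1 alone, and 693 of 27032 (2.56%) of those closed in all 3 E13.5 lists. Among regions at least 400 and under 800 bp wide the shares were 55.4%, 30.2%, 17.7% and 2.8%, so that the order held at like width. Shared regions gave the same order, with 40.2%, 27.1%, 18.7% and 3.87%. Among regions open in both embryonic Ctrl lists, a peak lost from both E13.5 Runx1 groups was also lost at E9.5 in 34.7% (192 of 553), against 4.1% (546 of 13318) where both kept it. In liver the gained shares were small, with 31 of 894 (3.47%) for regions open in both E13.5 Runx1 groups and 159 of 28513 (0.558%) for those closed. The lost shares in liver were larger. They were 38.2% (39 of 102) where both E13.5 Runx1 groups had lost the peak and 40.7% (77 of 189) where 2Runx1 alone had. Where both kept it, the share was 20.2% (1007 of 4987). In all, 2137 of the 2Runx1-only regions (4.16%) gained a peak at E9.5, against 3.76% of all 2Runx1 regions, and 1193 (2.32%) in liver, against 3.31% of all.

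**Figure D4:**
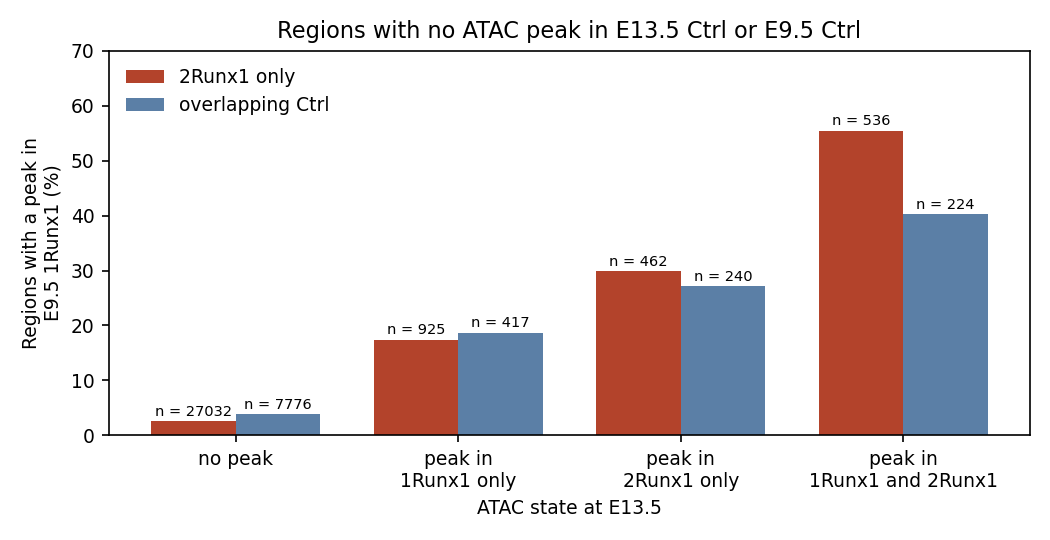
Percent of regions with an ATAC peak in E9.5 1Runx1, by the ATAC state of the same region at E13.5, among regions without a peak in E13.5 Ctrl and in E9.5 Ctrl; n above each bar is the number of regions. The 2Runx1-only bars run from 2.56% for closed regions to 55.4% for regions open in both E13.5 Runx1 groups, and the shared bars follow the same order.

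The 2Runx1-only regions lay away from gene starts. A RefSeq start was in 3.15% of them, against 10.2% of the shared regions, and 13.8% lay within 1 kb of one, against 27.5%. The open regions were nearer to starts, with 27.0% within 1 kb among those open in all 3 E13.5 lists, against 7.87% among those closed in all 3. The gained regions were between, at 11.4%. The centre of 61.4% lay in a gene span (67.1% of shared), and 94.6% had a gene within 100 kb. The nearest such gene is called the near gene, which is a statement of position and not of control. In all 13892 genes were near genes, with a median of 2 regions each.

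Of the 10 2Runx1-only regions with the highest fold enrichment, 8 had a peak in every E13.5 and E9.5 ATAC list, and 2 of these, in Gm2a and Eaf2, also in both liver lists. The exceptions were the first, chr12:31268921-31269869 in the laminin gene Lamb1 (fold enrichment 5.37), and the eighth, chr2:62419383-62419698, 7226 bp from Dpp4 (5.01), which had no ATAC peak in any list. The others lay in or near Tmem108, Lmna (a nuclear lamina gene), Mboat7, Cish, Gm2a, Fbll1, Mitf and Eaf2. Mitf, Fbll1 and Eaf2 were below the expression filter of the RNA test. Of the other 7 near genes, 0 passed the test in E13.5 2Runx1 against Ctrl, where 0.271% of all genes did.

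Among the gained regions, the 10 with the highest −log10 q included chr5:111439137-111440277 in Mn1 (no ATAC peak in E13.5 Ctrl, fold enrichment 5.78 in 1Runx1 and 4.03 in 2Runx1), and chr16:23984458-23985253 in Bcl6, a zinc finger repressor gene (none, 2.1 and 2.63). The region chr8:46852255-46853056, near the interferon regulatory factor gene Irf2, had none, 7.16 and 8.65, and 4.66 in E9.5 1Runx1 with none in E9.5 Ctrl. The lncRNA gene B230217O12Rik held chr19:57343423-57344315, with none, 12.4 and 10.8 at E13.5 and 6.2 in E9.5 1Runx1 alone. A region near Zfp704, chr3:9610491-9611620, had a peak of 13.1 in E13.5 2Runx1 and none in the 6 other lists. The remaining 5 lay near Parn, Med13l, Pbx2, Agtpbp1 and Snx18. Of these 10 near genes, 0 passed the test in E13.5 2Runx1 against Ctrl, where 0.271% of all genes did. B230217O12Rik rose in 1Runx1 (log2 difference 0.42, limma adjusted p = 0.0448), where 6.34% of all genes were higher.

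Only 9 regions gained a peak in both E13.5 Runx1 groups, at E9.5 and in liver, and all are named here after their values were seen. They lay near Cuedc1, Aopep, Wasl, Dync2h1, Axl, Tnxb, Serpinb10, Sptbn1 and Abhd12b. The ATAC fold enrichment in E13.5 2Runx1 ran from 3.47 (chr11:88107431-88107946, in Cuedc1) to 14.2 (chr12:70136151-70136614, 17741 bp from Abhd12b). At that last region it was 11.4 in E13.5 1Runx1, 12.1 in E9.5 1Runx1 and 4.79 in liver 2Runx1. Tnxb, Serpinb10 and Abhd12b were below the expression filter, and 0 of the other 6 genes passed the test in either E13.5 Runx1 group against Ctrl. Of all genes, 0.271% passed in 2Runx1 and 10.4% in 1Runx1.

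RNA was compared by limma on log2(RPKM + 1) over the 12546 genes that reached 1 RPKM in 2 or more libraries, with Benjamini-Hochberg adjustment over all of them and a threshold of 0.05. Folds on this scale understate the change of low genes. The libraries carried 37754246 to 44540403 reads recovered from the RPKM steps. E13.5 2Runx1 and E13.5 1Runx1 were each compared with the same single Ctrl library, so these comparisons share it, and their spread comes from the other groups. Nothing in the labels ties the replicates to separate animals, so that the p-values reflect the spread of these libraries alone. The E13.5 1Runx1 libraries, which differed in Xist and Ddx3y as given above, came from different fetuses. The E13.5 2Runx1 libraries also differed, with Ddx3y at 3.0 and 7.13 RPKM and the Y-linked Eif2s3y at 2.45 and 7.59. In E9.5 1Runx1, Xist was at 0.992 and 0.25 RPKM. Whether the libraries within E13.5 2Runx1 or within E9.5 1Runx1 came from different animals was not tested. In the remaining groups the spread may be technical. Since 8999 of the 12546 genes tested (71.7%) had a 2Runx1-only region near, nearness by itself sorted few genes.

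In E13.5 2Runx1 against Ctrl, 16 near genes were higher and 5 lower, that is 0.178% and 0.0556% of the 8999, against 0.151% and 0.12% of all genes tested. In total 19 genes were higher and 15 lower over the whole table. The share of near genes called was 0.233%, against 0.271% of all, and the median log2 difference was 0.019 against 0.018. With 1Runx1 against Ctrl at E13.5, 563 were higher and 323 lower (6.26% and 3.59%, against 6.34% and 4.03% of all; 9.85% called, against 10.4%). With E13.5 2Runx1 against 1Runx1, 196 were higher and 303 lower (5.55% called), and of all genes 2.17% were higher and 3.16% lower (5.33% called). With E9.5 1Runx1 against Ctrl it was 84 and 27 (1.23%), against 0.861% and 0.327% of all genes (1.19%). In liver it was 1513 and 774 (25.4%), against 17.1% and 8.14% of all genes (25.3%). In each of these 5 comparisons the share of near genes called was near that of all genes, a little below it in both E13.5 comparisons with Ctrl and a little above it in the other 3. The number in E13.5 2Runx1 against Ctrl rested on single libraries and on the fit: it was 189 (112 higher) without the first 2Runx1 library, 69 (23 higher) without the second, 0 with the libraries of the stage alone and 34 (17 higher) with limma-voom on the recovered reads. Leaving out 1 library gave 308 for 2Runx1 against 1Runx1 (without the second 1Runx1 library), 28 to 65 at E9.5 and 1404 to 1538 in liver. Of genes near a 2Runx1-only region, 64.8% passed the expression filter and their median E13.5 Ctrl level was 2.93 RPKM, against 49.9% and 0.498 RPKM over all genes. Those near shared regions alone were higher (68.0% and 4.45 RPKM), those near 2Runx1-only regions alone were close to all genes (50.5% and 0.583 RPKM), and those near neither were at 15.9% and 0.

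The 934 tested genes near a gained region held 5 called higher and 0 lower in E13.5 2Runx1 against Ctrl (0.535% called, against 0.271% of all genes tested). These 5 were Runx1, Itgb3, Dok2, Alox5 and Tgm2. Near regions gained in both Runx1 groups there were 543 tested genes, of which Itgb3, Alox5 and Tgm2 were higher and 0 lower. Of the 1784 tested genes near a region with a lost peak, 4 were higher and 1 lower (0.28% called, against 0.271% of all). The 4 were Runx1, Dok2, Lgals9 and F2rl3, and the lower one was Tcim. Runx1 and Dok2 thus had both gained and lost regions near. Counts this small have no test here.

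Runx1 itself, whose RNA in these cells includes that of the knock-in, came first. It was at 1.37 RPKM in E13.5 Ctrl, at 28.9 and 23.7 in 1Runx1 and at 22.7 and 25.2 in 2Runx1. At E9.5 it was at 0.915 and 0.904 in Ctrl and at 14.9 and 16.2 in 1Runx1, and in liver at 1.19 and 1.53 in Ctrl and at 78.1 and 78.4 in 2Runx1. No Runx1 library overlapped a Ctrl library, and the E13.5 2Runx1 difference was 3.39 ± 0.12 (SE) on the log2 scale (limma adjusted p = 7.68e-07). Between 2 and 1 copies at E13.5 it was −0.13 ± 0.1 (adjusted p = 0.503). The locus, chr16:92601466-92826074, had 10 2Runx1-only regions and 7 shared ones near. Among the 10, chr16:92822591-92823330 inside the gene, had an ATAC peak of fold enrichment 18.2 in E13.5 2Runx1 and none in the 6 other lists. In contrast, chr16:92632128-92633093 was open in all 5 embryonic lists (8.13 to 13.4). Lost peaks were at chr16:92639155-92639932 (3.88 in E13.5 Ctrl) and chr16:92830275-92830942 (4.44), with none in either E13.5 Runx1 group.

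Itgb3 encodes integrin beta 3, which pairs with CD41 on platelets and with the alpha V chain on endothelium. It was at 0.862 RPKM in E13.5 Ctrl, at 3.77 and 3.38 in 1Runx1 and at 5.15 and 6.62 in 2Runx1, and it was called higher in 2Runx1 (log2 1.88 ± 0.13, adjusted p = 0.000176). It was also higher with 2 than with 1 copy, by 0.58 ± 0.11 (adjusted p = 0.0162). It also rose at E9.5 (2.08 ± 0.11) and in liver (2.6 ± 0.11), where it stood at 6.57 and 7.06 RPKM in Ctrl and at 48.2 and 44.4 in 2Runx1. Of its 6 2Runx1-only regions, chr11:104640951-104641353 had no ATAC peak in E13.5 or E9.5 Ctrl, 6.24 and 5.21 in E13.5 1Runx1 and 2Runx1, and 5.64 in E9.5 1Runx1, with none in liver. A further one, chr11:104618259-104619646, was open in all 7 lists, at 4.44, 10.1 and 9.25 in E13.5 Ctrl, 1Runx1 and 2Runx1. The region over the gene's start, chr11:104607757-104608852, was at 21.4, 21.2 and 22.1.

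Alox5 and Ltc4s encode enzymes of leukotriene synthesis, 5-lipoxygenase and leukotriene C4 synthase. Alox5 was at 0.217 RPKM in E13.5 Ctrl, 1.02 and 1.56 in 1Runx1 and 1.41 and 1.23 in 2Runx1 (log2 0.93 ± 0.14, adjusted p = 0.0347). At E9.5 it was at 0.536 and 0.411 in Ctrl and at 4.38 and 4.81 in 1Runx1 (1.93 ± 0.12). In liver it was under 0.1 RPKM in each library. Its single 2Runx1-only region, chr6:116455773-116456322 inside the gene, had no ATAC peak in E13.5 Ctrl, 8.33 in 1Runx1 and 13.1 in 2Runx1, no peak in E9.5 Ctrl, 14.8 in E9.5 1Runx1, and none in both liver lists. The peak was listed in the 3 embryonic groups with added Runx1, whose libraries all had more Alox5 RNA than the Ctrl libraries of their stage. The Alox5 call was lost with limma-voom on the recovered reads (adjusted p = 0.0516). Ltc4s was at 0.433 RPKM in E13.5 Ctrl, 4.21 and 4.53 in 1Runx1 and 2.4 and 3.81 in 2Runx1 (1.5 ± 0.18, adjusted p = 0.00809), and its single region had no ATAC peak in any list. The Ltc4s call was likewise lost with limma-voom (adjusted p = 0.0781).

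**Figure D5:**
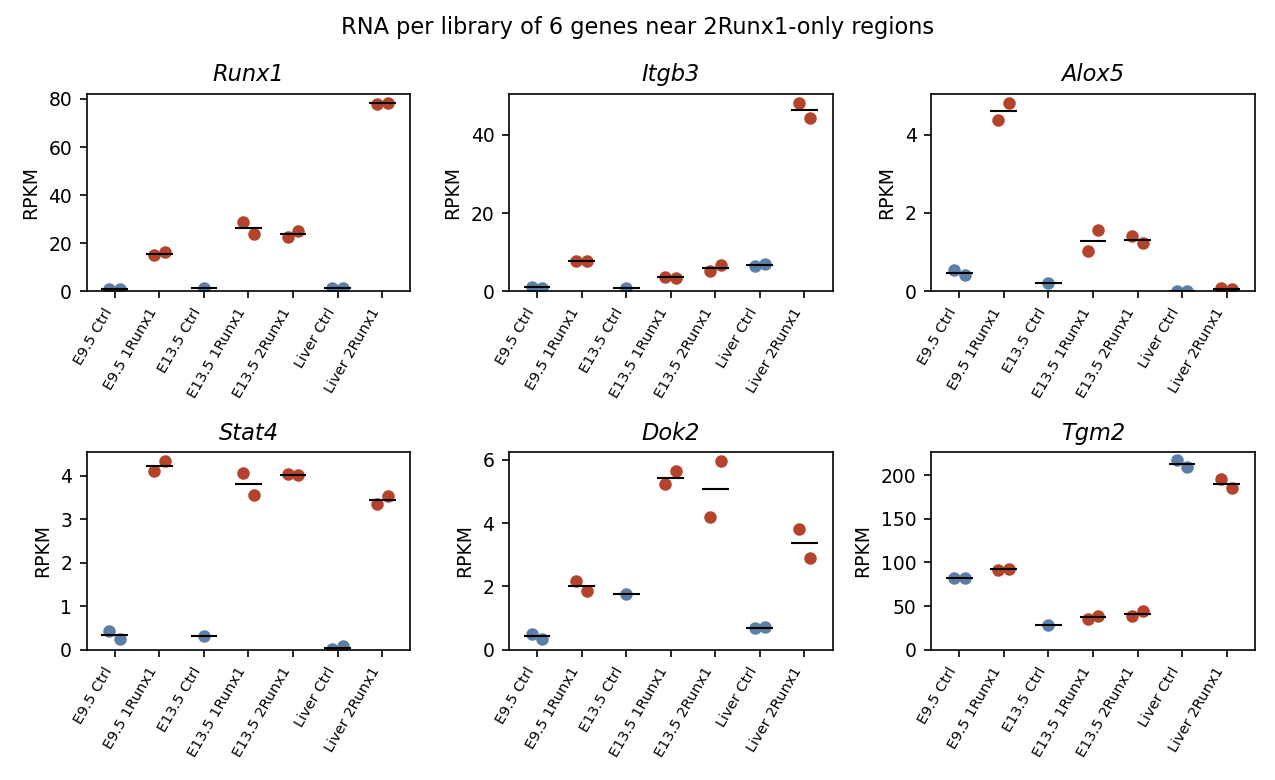
RPKM of 6 near genes in the 13 RNA libraries; each point is 1 library, blue for Ctrl and red for Runx1 groups, and each black line is the group mean (E13.5 Ctrl has 1 library). In Runx1, Itgb3, Stat4 and Dok2 the libraries of the Runx1 groups lie above the Ctrl of the same stage at all 3 stages; Alox5 stays under 0.1 RPKM in liver, and Tgm2 lies below Ctrl in liver.

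The other near genes called higher had few gained regions. Stat4, a cytokine signalling factor, was at 0.311 RPKM in E13.5 Ctrl and at 4.03 and 4.01 in 2Runx1 (1.94 ± 0.12, adjusted p = 5.43e-05). It had 5 regions near and none gained. Dok2, an adaptor of tyrosine kinases, went from 1.75 to 4.19 and 5.96 RPKM (1.13 ± 0.18, limma adjusted p = 0.035). Of its 5 regions, chr14:70776340-70777255 had a peak in E13.5 2Runx1 (3.05) and none in Ctrl. That region had no peak in E13.5 1Runx1 either, where Dok2 was at 5.22 and 5.63 RPKM. Another, chr14:70773261-70773525, had a peak in E13.5 Ctrl (5.19) and none in either E13.5 Runx1 group. Lgals9, which encodes galectin 9, was at 54.4 RPKM in Ctrl and 104 and 107 in 2Runx1 (0.94 ± 0.08, adjusted p = 0.00039). It was higher still in 1Runx1, at 134 and 154, with a difference of −0.44 ± 0.06 between 2 and 1 copies (limma adjusted p = 0.00469). Its region chr11:78966847-78968170 had a peak in E13.5 Ctrl (7.21) and 1Runx1 (7.49) and none in 2Runx1. The small GTPase gene Gem had 5 regions, of which 4 were open in all 3 E13.5 lists, and went from 14.6 to 29.0 and 26.9 RPKM (0.89 ± 0.11). The thrombin receptor gene F2rl3 went from 6.46 to 11.5 and 11.6 RPKM (0.75 ± 0.1), the diacylglycerol kinase gene Dgka from 6.09 to 10.7 and 10.1 (0.69 ± 0.1) and Gprin3 from 0.406 to 1.6 and 2.61 (1.12 ± 0.16). AI467606 (1.43 ± 0.16), Def6 (0.83 ± 0.12) and Nfkbie, an inhibitor of NF-kappa-B (0.67 ± 0.11), were also higher, with 2, 1 and 2 regions near. Pcdhgb8 (1.11 ± 0.18) lies in a protocadherin cluster whose genes share sequence and is uncertain.

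Tgm2, the transglutaminase gene, had 2 gained regions near. It and Mmp9 are named after their values were seen. It was at 28.4 RPKM in E13.5 Ctrl, 35.2 and 38.9 in 1Runx1 and 38.2 and 44.7 in 2Runx1 (0.53 ± 0.09, adjusted p = 0.0434). Its region chr2:158160159-158161249, 14312 bp from the gene, had no peak in E13.5 Ctrl, 12.8 in 1Runx1 and 6.94 in 2Runx1, but was open in both E9.5 lists (9.55 in Ctrl). At E9.5 Tgm2 was at 82.3 and 81.7 RPKM in Ctrl. Mmp9, a matrix protease gene with a gained region at chr2:164931356-164931673 (none, 4.66 and 5.67), was at 1.37 RPKM in Ctrl, 34.3 and 10.3 in 1Runx1 and 7.79 and 31.9 in 2Runx1. Its libraries spread widely, and it passed the test in 1Runx1 (3.08 ± 0.71, adjusted p = 0.0247) but not in 2Runx1 (2.84 ± 0.71, adjusted p = 0.151). In liver, where the region had no peak in Ctrl or 2Runx1, it rose by 3.74 ± 0.58 (adjusted p = 0.000833).

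The 5 near genes called lower in E13.5 2Runx1 were Hemgn (8.59 RPKM in Ctrl, 4.49 and 3.37 in 2Runx1), Pklr (2.3, then 1.0 and 0.932), Slc25a37 (8.53, then 5.09 and 4.72), Tcim (83.3, then 57.1 and 50.6) and the X-linked Mospd1 (37.4, then 27.2 and 25.2). Hemgn, Pklr (red cell pyruvate kinase) and Slc25a37 (the mitochondrial iron carrier mitoferrin) are known from erythroid cells. The log2 differences ran from −0.97 ± 0.14 (Hemgn, adjusted p = 0.031) to −0.49 ± 0.07 (Mospd1, adjusted p = 0.0168). The regions near Hemgn, Slc25a37 and Mospd1 had no ATAC peak in any list, and of the 12 near Tcim 3 were open in all 3 E13.5 lists. Summed over the list of 14 erythroid genes, the level was 1230 RPKM in E13.5 Ctrl, 484 and 607 in 1Runx1 and 1250 and 610 in 2Runx1, with Hbb-bt and Hbb-bs listed at 0 in every library. The 4 tested near genes of this list had a median log2 difference of −1.02 in E13.5 2Runx1 against Ctrl. Of these, 1 was called lower (0.12% of all genes were). The part of erythroid RNA in these differences was not tested. In bulk samples, fewer cells of a type and less RNA per cell cannot be told apart.

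The sorted cells carried endothelial markers throughout. The summed level of 24 endothelial genes was 4240 to 4630 RPKM over the 5 E13.5 libraries, with Cdh5 at 148 and Pecam1 at 280 RPKM in Ctrl. Ptprc, which encodes the CD45 of the negative gate, was at 0.317 RPKM there. The 18 leukocyte and macrophage genes summed to 94.1 to 111 RPKM and the 16 hepatocyte genes to 206 to 297 RPKM in the same 5 libraries. The 11 neutrophil and mast cell genes summed to 37.0 RPKM in Ctrl and to 11.8 to 23.3 in the Runx1 libraries.

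Near endothelial and hemogenic genes the share of regions that were 2Runx1-only was below the 58.1% of the whole list, at 42.5% (172 of 405) and 51.2% (185 of 361). This was not particular to them. The share ran from 46.2% to 55.4% for the hepatocyte, platelet, TGF-beta, venous, leukocyte and arterial lists. It ran from 58.8% to 77.8% for the leukotriene, neural, p53, mesenchymal, erythroid and neutrophil lists. The gene lists were drawn up with earlier results of these data known. The gained counts given per list here and below stand beside 3.26% gained over all 2Runx1-only regions, and they have no test. Of 24 endothelial identity genes, 22 had such a region near, 172 in all, 2 of them gained. Of those 22, 0 passed the test in E13.5 2Runx1 against Ctrl (0.271% of all genes did), with a median log2 difference of 0.02. Among them Ets1, an ETS factor gene, had 33 regions and was at 146 RPKM in Ctrl and 148 and 149 in 2Runx1. Flt1 (23) and Kdr (18), the VEGF receptor genes, had differences of −0.13 ± 0.09 and −0.07 ± 0.1.

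Of 24 hemogenic regulators, 22 had 185 regions near, 10 of them gained in 8 genes (3.26% of all 2Runx1-only regions were gained). Of 19 tested, Runx1 alone was called in E13.5 2Runx1 against Ctrl (0.271% of all genes were), with a median of −0.03. Etv6 and Mecom, which encode transcription factors of blood stem cells, each had 35 regions, with differences of 0.26 ± 0.1 and −0.13 ± 0.12. Kit, the stem cell factor receptor gene of the sort gate, had 21 regions of which 2 were gained, and was at 25.6 RPKM in Ctrl and at 29.4 and 43.2 in 2Runx1 (0.46 ± 0.16, adjusted p = 0.274). In 1Runx1, at 39.4 and 39.2, it was called higher (0.6 ± 0.16, adjusted p = 0.0447). In E13.5 1Runx1 against Ctrl 6 of these 19 were higher and 1 lower, where 6.34% of all genes were higher and 4.03% lower.

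The title of the study names TGF-beta target genes, which are switched on when SMAD factors, activated by TGF-beta receptors, enter the nucleus. Of 25 such genes, 22 had 126 regions near, 3 of them gained. Of 20 tested 0 passed in E13.5 2Runx1 against Ctrl (0.271% of all genes did), with a median of −0.11 against 0.018 over all genes. In 1Runx1 against Ctrl 3 were higher and 1 lower (6.34% and 4.03% of all genes), and between 2 and 1 copies 3 were lower (3.16% of all genes). Smad6, which encodes an inhibitory SMAD, had 20 regions, 2 of them gained, and a difference of −0.11 ± 0.15. Of the pathway's own components, 18 of 21 had 163 regions near, 4 of them gained, and 0 of 18 passed the test in 2Runx1. The receptor genes Tgfbr2 (20 regions) and Tgfbr3 (23) had differences of 0.29 ± 0.09 (adjusted p = 0.209) and −0.05 ± 0.14, and Smad3 (25) had 0.39 ± 0.12 (adjusted p = 0.216).

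All 15 arterial genes had a region near, 92 in all and 3 gained. In E13.5 2Runx1 against Ctrl 0 passed the test, where 0.271% of all genes did. Nrp1 had 20 and Efnb2 14. In liver 2Runx1, 6 of these 15 were lower, Efnb2 (−0.62 ± 0.11) and Nrp1 (−0.3 ± 0.05) among them, and 1 was higher, against 8.14% lower and 17.1% higher of all genes. The 7 venous genes had 47 regions near, and 0 were called in E13.5 2Runx1 against Ctrl, where 0.271% of all genes were. Between 2 and 1 copies at E13.5, 1 was higher (2.17% of all genes). In liver 2Runx1, 2 of the 7 were higher and 0 lower, against 17.1% and 8.14% of all genes.

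Of 11 enzymes of leukotriene and prostanoid synthesis, 9 had 30 regions near, 3 of them gained. Alox5 and Ltc4s were the 2 of 8 tested that rose in E13.5 2Runx1 (0.151% of all genes did), with a median of 0.15 over the 8. At E9.5 3 of 8 rose (0.861% of all genes) and in liver 3 of 8 (17.1%). Alox5ap, the partner protein of 5-lipoxygenase, had 4 regions, of which 1 was gained, and was at 3.42 RPKM in E13.5 Ctrl and 4.12 and 5.13 in 2Runx1 (0.34 ± 0.21, adjusted p = 0.507). It rose in liver (0.83 ± 0.17, adjusted p = 0.005).

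Of 10 p53 targets, 8 had 14 regions near, 0 of them gained (3.26% of all 2Runx1-only regions were). All 7 tested rose at E9.5, where 0.861% of all genes did, 4 rose in E13.5 1Runx1 (6.34% of all genes), and 0 passed the test in E13.5 2Runx1 (0.271%). Cdkn1a, the cell cycle inhibitor p21, had 1 region, open in all 7 lists (7.32 to 13.7). It was at 8.05 RPKM in E13.5 Ctrl, at 31.8 and 39.9 in 1Runx1 and at 15.6 and 14.6 in 2Runx1, which differed from Ctrl by 0.83 ± 0.15 (adjusted p = 0.0543) and from 1Runx1 by −1.19 ± 0.12 (adjusted p = 0.000694).

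Of 14 megakaryocyte and platelet genes, 8 had 23 regions near, 3 of them gained in 3 genes. Of 6 tested, Itgb3 alone was called in E13.5 2Runx1 (0.271% of all genes were). The partner of Itgb3, Itga2b, encodes CD41, a marker of the negative gate. The Itga2b promoter printed above lies in chr11:102469364-102470444, which had no ATAC peak in E13.5 Ctrl and 1Runx1, 2.54 in 2Runx1, and 3.38 and 7.56 in E9.5 Ctrl and 1Runx1. Its RNA was at 7.1 RPKM in E13.5 Ctrl and 4.76 and 8.54 in 2Runx1, so that the Runx1 libraries lay on both sides of Ctrl (−0.13 ± 0.31). In liver it rose from 4.03 and 4.39 to 9.6 and 9.84 RPKM (1.04 ± 0.25, adjusted p = 0.0117), where that region had no peak. The Gp1ba region, chr11:70638589-70639291, had a peak of 3.47 in E13.5 2Runx1 alone among the E13.5 lists. It was also open at E9.5, at 4.98 in Ctrl, without added Runx1, and 10.3 in 1Runx1. Gp1ba RNA was at 0.639 and 0.953 RPKM in E13.5 2Runx1 beside 0.793 in E13.5 Ctrl.

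The genes with the most 2Runx1-only regions were long. Magi1 had 61, Ptprm 59, Arhgap26 56, Maml3 and Prkce 55, Foxp1, Ptprg and Tcf4 52, Sash1 47 and Auts2 45, over spans of 223 to 1106 kb. None of these 10 passed the test in E13.5 2Runx1 against Ctrl, where 0.271% of all genes did. Their log2 differences ran from −0.19 (Arhgap26) to 0.23 (Ptprm). At most 3 of the regions at each of them were gained. The most gained regions, 4 each, were near Fam53b, Stard13 and Plekhm3, whose differences of 0.21 ± 0.13, 0.05 ± 0.12 and 0.0 ± 0.12 did not pass the test either.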

How the data were processed

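Peak lists and expression values were used as the authors deposited them; per the submitters' processing notes, mm10 and GRCm38 were the builds, and MACS2 2.1.4, Bowtie2 2.3.5.1, STAR 2.7.3a, Subread 2.0.0, featureCounts and edgeR were among the tools named, with no role or order. The authors' deposited peak lists, 1 per group, give each peak a display score, its fold enrichment (a ratio) and its −log10 q; H3K4me1 peaks carry no summit. The deposited table holds RPKM for 25239 genes in 13 libraries; whole reads were recovered from it for 100% of the 20720 genes above 0 (tolerance 0.001 reads).

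Regions were intersected with bedtools 2.31.1 (at least 1 bp) from Python 3.11.15. The near gene was the nearest RefSeq gene span (GRCm38.p6) within 100 kb of the region's centre, because start sites were given for only 18651 of the 25239 genes; the nearest start site, the rule first written, became an alternative. Start sites and promoter windows (250 bases) were used outside chromosome 18; region-centre sequences, first intended, were not used here. RNA was tested with limma 3.58.1 (R 4.3.3) over 7 group means, with 6 residual and 10.3 total degrees of freedom; the procedure was checked on simulated data. Named regions and genes followed a rule: the 10 strongest regions, the 10 strongest gained regions, up to 15 near genes called in each direction, the 10 genes with the most regions, and up to 4 genes per list. Any others are said to be chosen after their values were seen. Members and lists were chosen with earlier results of these data known. Alternatives tried were the overlap rule, stricter peaks, the near-gene rule, pseudocount, filter, normalization, a replicate block, leaving out each library, limma-voom and leaving out chromosome X.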

Additional observations from a re-analysis of the deposited data

Results flagged for a closer look

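Dgka, which has a RefSeq start, within its span, in a 2Runx1-only region, moved in opposite directions at 2 stages. It stood higher in both E13.5 2Runx1 libraries than in the single Ctrl library (log2 difference 0.69) and lower in both liver 2Runx1 libraries than in both liver Ctrl libraries (19.3 and 17.5 against 20.5 and 20.6 RPKM), a log2 difference of −0.15 that did not pass the limma test (adjusted p = 0.227). The difference between the stages was not tested.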

How the results depend on the processing

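The E13.5 2Runx1 calls on the 20 near genes named by the rule kept their direction in all 160 combinations of gene and alternative, and 48 of these lost the call, 20 of them in the fit on the libraries of the stage alone, which made 0 calls among near genes. The number of 2Runx1-only regions was 70178 when a region counted as shared only if Ctrl regions covered 50% of it, 42679 with Ctrl regions widened by 1 kb and 161 among regions with −log10 q of at least 5. Under those 3 rules the share with an E13.5 Ctrl ATAC peak was 46.9%, 38.2% and 69.6%, with a 1Runx1 peak 47.3%, 39.0% and 71.4%, and with a 2Runx1 peak 43.0%, 34.2% and 60.9%; in the strictest set 5 regions were gained. Requiring the ATAC summit inside the region gave 24.9%, 25.8% and 21.8%, and ATAC peaks of −log10 q at least 5 gave 32.9%, 32.9% and 30.0%, for Ctrl, 1Runx1 and 2Runx1. Near genes called in E13.5 2Runx1 against Ctrl numbered 11 with a pseudocount of 0.1, 74 without the filter (27 higher and 47 lower) and 34 with limma-voom (17 and 17), which was chosen after seeing the data. They numbered 69 to 189 when 1 of the 2Runx1 libraries was left out, 189 of them (112 higher) without the first and 69 (23 higher) without the second; the cause was not tested. On the libraries of the stage alone 4 were called for E13.5 1Runx1 against Ctrl, 7 for 2Runx1 against 1Runx1 and 28 at E9.5. Leaving out a library gave 308 to 650 for E13.5 2Runx1 against 1Runx1 (308 without the second 1Runx1 library), 28 to 65 at E9.5 and 1404 to 1538 in liver, so that each E9.5 library and, in liver, the first Ctrl and both 2Runx1 libraries moved the count by over 1.5 times. Restricted to regions with an E13.5 2Runx1 ATAC peak, which leaves 6003 genes, 578 were called for E13.5 1Runx1 against Ctrl and 1474 in liver. With a replicate block the counts were 23, 721, 434, 98 and 2226; same-numbered libraries correlated by −0.0468, −0.0611 and 0.107 across genes at E13.5, E9.5 and in liver, so the numbers were not taken as pairs. Under the block Dok2, Pcdhgb8, Alox5, Nfkbie, Slc25a37 and Tcim lost their E13.5 2Runx1 call, and 13 near genes were higher and 10 lower. Pcdhgb8, Nfkbie, Slc25a37 and Tcim lost it without the second 2Runx1 library, and Runx1, Stat4, Itgb3, AI467606, Lgals9, Gem, F2rl3, Dgka and Mospd1 lost it in no alternative but the fit on the libraries of the stage alone. Leaving out chromosome X changed no count or share beyond the margin used here. At an unadjusted p under 0.05 the 5 comparisons held 1642, 3530, 2952, 1508 and 4567 genes. The depth of the ChIP and ATAC libraries was not used here, and it limits what absence from a list can show.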
